A study of Mus musculus with 19 samples.

Results

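The knock-in effect in the cerebellum was read from 4 libraries of SCA17 knock-in (KI) mice and 3 libraries of wild-type (WT) mice, 7 of the 19 libraries of the series, chosen by the tissue and genotype that the sample names and labels give. All mice were C57BL/6 and 3 months old. The KI mice were germline carriers of *Tbp*-105Q, an allele of the TATA box-binding protein gene with an expanded CAG repeat. A floxed *Tbp* allele had been recombined by EIIa-Cre and then passed on through breeding to WT, and the allele is not limited to one cell type by a promoter or Cre. The WT mice were matched for age, and the labels give no zygosity or sex and no transgene in the WT group. Striatum and prefrontal cortex, with 3 libraries of each genotype, served only to ask where the cerebellum differed. Of 41128 genes in the count table, 16841 had enough counts to be tested. Levels are given as CPM, read counts scaled for library size by the TMM method, in the order WT 1 to 3 and KI 1 to 4. Fold changes are log2 of KI over WT with their standard errors (SE), and an edgeR adjusted p comes from the quasi-likelihood test of edgeR, adjusted by Benjamini-Hochberg over all tested genes, with 0.05 as the threshold for calling a gene higher or lower. The labels speak of 3 to 4 mice per genotype but tie no library to an animal, so the p values measure the spread between these libraries.

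The cerebellar cortex is built around Purkinje cells, large inhibitory neurons whose axons are the only output of the cortex. They receive excitatory input from the parallel fibres of granule cells, the most numerous neurons of the brain, and from climbing fibres, and they are held in check by molecular layer interneurons. Glutamate from parallel fibres also acts on Purkinje cells through the G protein Gq and phospholipase C beta, which makes IP3 and so releases calcium through the IP3 receptor. Bergmann glia surround Purkinje cells, and microglia, the resident macrophages, take part in complement-dependent removal of synapses and debris. TBP is part of the machinery that starts transcription, and its polyglutamine expansion causes spinocerebellar ataxia type 17, a disease in which Purkinje cells are prominently affected.

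The cerebellum libraries held between 11975768 and 17431284 counts, and each KI library (15695641 or more) was deeper than each WT library (15162265 or less). *Tbp* itself measured 60.9, 52.5 and 62.0 CPM in WT and 52.2, 54.3, 48.5 and 56.6 CPM in KI libraries (log2 fold change -0.14, SE 0.10, edgeR adjusted p = 0.687). Its groups overlapped, and since a repeat expansion cannot be seen in a gene count, this level checks no label. Markers of Purkinje and granule cells were high in all 7 libraries, as the cerebellum label requires, with *Calb1* at 1219 CPM or more and *Gabra6* at 1198 CPM or more. Libraries KI 3 and WT 1 stood apart through RNA of the choroid plexus, the tissue that makes cerebrospinal fluid: the summed level of its 15 markers was 4255, 286 and 263 CPM in WT and 338, 262, 11168 and 346 CPM in KI libraries. The defining marker *Ttr* ranged from 4.13 to 4547 CPM. Counts and list medians are therefore also given without these libraries where the difference matters. Among the markers of sex, *Xist* was high in KI 1, KI 3, WT 1 and WT 2 and Y-linked genes in KI 2, KI 4 and WT 3, so both kinds were present in each genotype.

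In the KI cerebellum, 87 genes were called higher and 53 lower, which is 0.517% and 0.315% of the genes tested. The counts were 50 and 23 without WT 2 and 48 and 30 without WT 3. Of the 87 higher genes, 52 were interferon-response genes, 17 were members of the microglia lists, 1 belonged to another list and 17 to none. Of the 53 lower genes, 8 belonged to the lists of cell types and neuronal functions, 44 to none, and the remaining gene was *Inpp5a*. Leaving aside interferon genes and *Inpp5a*, the 35 higher genes had a median size of 0.99 on the log2 scale and a median WT level of 6.08 CPM, and none of them was above 100 CPM in WT. The 52 lower genes had a median size of 0.92 on the log2 scale and a median WT level of 51.8 CPM, and 18 of them were above 100 CPM in WT. Changes of more than 4-fold were few, with 4 of these higher genes and 9 of these lower genes at a log2 size of 2 or more. Over all tested genes the median log2 fold change was 0.0073, and 51.5% lay above 0. TMM scaling places the bulk of genes near 0, so these values cannot show whether RNA levels shifted in general.

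The median of each gene list in each library is shown as its distance from the mean of the WT libraries. The lists were judged by how many members were called, how many had all KI libraries on one side of all WT libraries (without overlap), and the median log2 fold change of their members. Without overlap were 5.82% of all tested genes on the higher side and 6.47% on the lower side. An unadjusted p under 0.05 was reached by 4.86% on the higher and 5.26% on the lower side. The leading genes in each direction were named under a rule that required groups without overlap, so for those genes it adds nothing to the call. The lists of Purkinje cells, zebrin-positive Purkinje cells, Gq to IP3 receptor signalling, the postsynaptic density and ataxia genes were lower in all 4 KI libraries than in all 3 WT libraries. Both microglia lists, the lysosome list and the interferon list were higher in all 4.

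**Figure D1:**
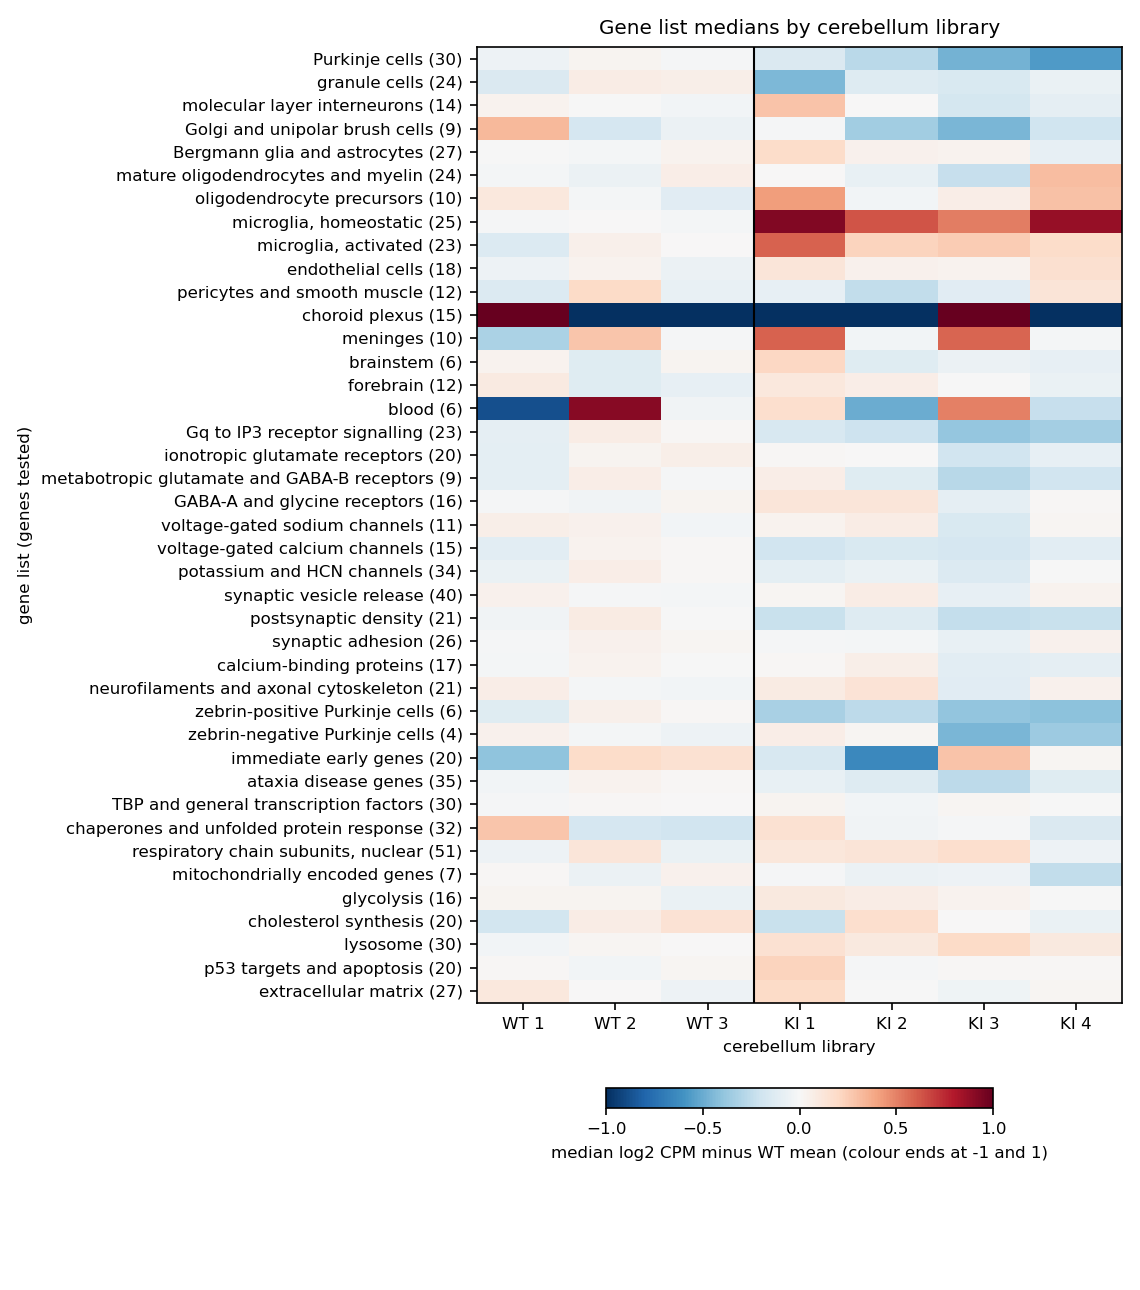
Median over the members of each gene list of the log2 CPM minus the mean of the WT libraries, for 3 WT and 4 KI cerebellum libraries, with the number of genes tested in brackets. The Purkinje cell list lies below 0 in all 4 KI libraries (-0.15 to -0.57) and the homeostatic microglia list above 0 in all 4 (0.51 to 0.93), while the choroid plexus list follows libraries WT 1 and KI 3.

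Most Purkinje cell genes had values below 0. Of 30 Purkinje cell genes tested, 29 had a log2 fold change below 0, 4 were called lower and none higher, and 18 were lower without overlap, which is 60.0% of the list beside 6.47% of all tested genes. The list median was -0.38, against -0.11 in striatum and -0.06 in prefrontal cortex. Summed over the list, the level was 15244, 15483 and 15024 CPM in WT and 12946, 11645, 9655 and 9555 CPM in KI libraries, so the KI mean was 71.8% of the WT mean. The WT libraries were close to each other, and the KI libraries were spread, with KI 1 nearest to WT and KI 3 and KI 4 lowest. In bulk tissue, fewer cells of a type and less RNA per cell cannot be told apart. Without KI 3 and WT 1, 27 of the 30 genes were still below 0 with a median of -0.31, and 2 were called.

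*Pcp2* (chr8:3623371-3625545), a Purkinje cell modulator of inhibitory G proteins, measured 169, 219.6 and 179 CPM in WT and 98.3, 95.6, 76.1 and 69.3 CPM in KI libraries (log2 fold change -1.16, SE 0.14, edgeR adjusted p = 0.000196). *Gng13* (chr17:25717171-25719406), a gamma subunit of heterotrimeric G proteins, measured 59.6, 87.3 and 76.4 CPM in WT and 35.01, 40.5, 34.7 and 28.8 CPM in KI libraries (log2 fold change -1.10, SE 0.14, edgeR adjusted p = 0.000418). The mean of WT was 2.23 times that of KI for *Pcp2* and 2.14 times for *Gng13*, each KI library lay below each WT library, and both calls held in each of the 17 alternative settings. *Aldoc*, the aldolase known as zebrin II that marks a subset of Purkinje cells and is also made by astrocytes, measured 4324, 3996 and 3865 CPM in WT and 3086, 2906, 2412 and 2198 CPM in KI libraries (log2 fold change -0.62, SE 0.11, edgeR adjusted p = 0.00912). Its groups did not overlap, and KI 4 was the lowest library. The call of *Aldoc* was lost without KI 3 and WT 1 together and with a replicate block (edgeR adjusted p up to 0.107).

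Other abundant Purkinje genes shared the direction without passing the threshold. *Calb1*, the calcium buffer calbindin, measured 1983, 1904 and 2076 CPM in WT and 1684, 1415, 1299 and 1219 CPM in KI libraries (log2 fold change -0.50, SE 0.19, edgeR adjusted p = 0.353). *Car8*, a protein that binds the IP3 receptor, measured 2188, 2563 and 2262 CPM in WT and 1934, 1759, 1219 and 1386 CPM in KI libraries (log2 fold change -0.57, SE 0.17, edgeR adjusted p = 0.153). *Rgs8*, which shortens G protein signals, measured 953, 952 and 936 CPM in WT and 787, 685, 486 and 576 CPM in KI libraries (log2 fold change -0.58, SE 0.14, edgeR adjusted p = 0.0647). Each of these genes had all KI libraries below all WT libraries. *Car8* and *Rgs8* were called by DESeq2 on the same groups (DESeq2 adjusted p = 0.0451 and 0.00753). Near the other end of the list, *Plcb4*, the phospholipase of zebrin-negative Purkinje cells, had a log2 fold change of -0.03 (95% interval -0.44 to 0.37). The transcription factors *Rora*, *Lhx1*, *Lhx5* and *Foxp2* had values of -0.12, -0.08, -0.10 and 0.26, all with overlapping groups. *Foxp2* was the 1 gene of the list above 0, with an interval of -0.45 to 0.97.

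**Figure D2:**
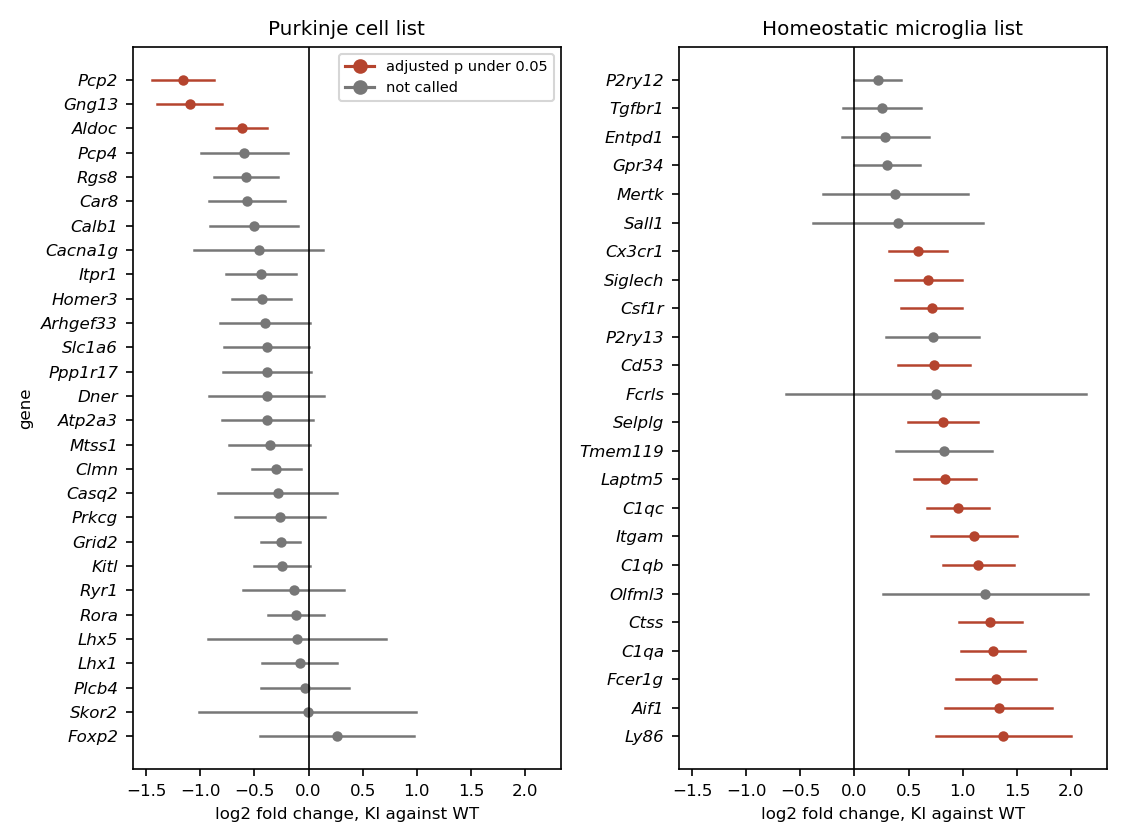
Log2 fold change of KI against WT cerebellum (points) with 95% confidence intervals (lines) for 28 Purkinje cell genes and 24 homeostatic microglia genes, sorted by size, with called genes in red. Of the Purkinje genes drawn, 27 lie left of 0, and all 24 microglia genes drawn lie right of 0.

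Purkinje cells come in stripes that do or do not make zebrin II. Of 6 genes of zebrin-positive cells, 5 were lower without overlap (83.3%, beside 6.47% of all tested genes) and 2 were called, with a median of -0.35. Of 4 genes of zebrin-negative cells, 1 was lower without overlap (25.0%) and 1 was called lower. Their median was -0.17, which was 0.04 without KI 3 and WT 1. The zebrin-positive phospholipase *Plcb3* measured 65.7, 90.2 and 78.0 CPM in WT and 46.4, 41.2, 38.4 and 42.2 CPM in KI libraries (log2 fold change -0.89, SE 0.12, edgeR adjusted p = 0.000418), and this call held in all 17 alternatives. The lists are short and the difference between them was not tested. *Plcb3* and *Plcb4* do the same step of the pathway, and the former was called while the interval of the latter included 0.

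The list of the pathway from Gq to the IP3 receptor, with its upstream receptors and calcium handling, did not include *Inpp5a*. Of 23 members, 19 were below 0, and 10 were lower without overlap (43.5%, beside 6.47% of all tested genes). In this list 2 (*Plcb3* among them) were called lower and none higher, and the median was -0.29. Without the 9 members that also stand in the Purkinje list, 10 of 14 remained below 0 and 5 were lower without overlap, with a median of -0.28. *Itpr1*, the IP3 receptor, measured 874, 840.2 and 823 CPM in WT and 758, 665, 539.8 and 533 CPM in KI libraries (log2 fold change -0.44, SE 0.15, edgeR adjusted p = 0.274). *Homer3*, a postsynaptic scaffold that binds the IP3 receptor, measured 137, 157 and 145 CPM in WT and 122, 127, 94.9 and 90.0 CPM in KI libraries (log2 fold change -0.43, SE 0.13, edgeR adjusted p = 0.172). *Atp2b2*, a calcium pump of the plasma membrane, measured 1220.2, 1278 and 1189 CPM in WT and 964, 1010.1, 884 and 967 CPM in KI libraries (log2 fold change -0.36, SE 0.14, edgeR adjusted p = 0.380). In these genes the KI libraries lay below the WT libraries with no overlap. The G protein subunits *Gnaq* and *Gna11* had log2 fold changes of -0.17 and 0.06, and the IP3 kinase *Itpkb* had 0.15, none of them called.

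Of 24 granule cell genes, 19 were below 0, 1 was called lower, and 8 were lower and 1 higher without overlap (33.3% and 4.17% of the list). The median was -0.21, and the summed level was 8113, 9603 and 9615 CPM in WT and 7338, 8279.5, 8010.1 and 8612 CPM in KI libraries. These sums overlapped, since WT 1 lay among the KI libraries. *Grm4*, the glutamate receptor mGluR4 at the endings of parallel fibres, measured 316, 310.2 and 257 CPM in WT and 147, 199, 159.6 and 198 CPM in KI libraries (log2 fold change -0.74, SE 0.15, edgeR adjusted p = 0.0212). Its groups did not overlap, but the call was lost without KI 1, KI 3, WT 1 or WT 2 (edgeR adjusted p up to 0.182). *Chn2*, a Rac regulator, measured 1005, 1138 and 1107 CPM in WT and 766, 842, 777 and 808 CPM in KI libraries (log2 fold change -0.44, SE 0.20, edgeR adjusted p = 0.477), with no overlap and no call. *Gabra6*, a GABA-A subunit made by granule cells, measured 1264, 1198 and 1298 CPM in WT and 1398, 1269.7, 1225 and 1312 CPM in KI libraries (log2 fold change 0.05, SE 0.17, edgeR adjusted p = 0.965), and its groups overlapped. *Cbln3* and *Neurod1* had log2 fold changes of -0.36 and -0.40 and were not called.

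Of 14 genes of molecular layer interneurons, 0 were called by edgeR (1 higher and 0 lower at an unadjusted p under 0.05, 0 and 0 called by DESeq2) and 0 were without overlap, 8 were above 0, and the median was 0.01. *Gad1*, which makes GABA, measured 967, 768 and 819.7 CPM in WT and 1012, 785, 679 and 689 CPM in KI libraries (log2 fold change -0.11, SE 0.23, edgeR adjusted p = 0.942). *Pvalb*, parvalbumin, which Purkinje cells make as well, had a log2 fold change of -0.21 (SE 0.41). The groups overlapped in both genes. Genes of Golgi and unipolar brush cells had a median of 0.07 over 9 members, with log2 fold changes from -1.76 to 1.83. Of these genes 6 were above 0, 1 was called lower and 0 higher. Without overlap, 3 were lower (33.3%, beside 6.47% of all tested genes) and 0 higher. The called member also stands in the Purkinje list. The median of the Golgi and unipolar brush cell list and that of the interneurons changed sign under other settings.

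Few synaptic and channel genes were called. Of 21 genes of the postsynaptic density, 16 were below 0 and 7 were lower without overlap (33.3%, beside 6.47% of all tested genes). By edgeR 0 were called (0 higher and 5 lower at an unadjusted p under 0.05, 0 and 2 called by DESeq2), and the median was -0.19. *Shank2*, a scaffold of excitatory synapses that is rich in Purkinje cells, measured 88.7, 102 and 96.7 CPM in WT and 82.0, 77.7, 71.9 and 61.1 CPM in KI libraries (log2 fold change -0.39, SE 0.10, edgeR adjusted p = 0.112), with no overlap. Of 15 voltage-gated calcium channel genes, 11 were below 0 and 4 were lower without overlap (26.7%, beside 6.47% of all tested genes). By edgeR 0 were called (0 higher and 2 lower at an unadjusted p under 0.05, 0 and 0 called by DESeq2), and the median was -0.19. *Cacna1a*, the P/Q-type channel, measured 136, 168 and 170.2 CPM in WT and 95.02, 113, 119 and 147 CPM in KI libraries (log2 fold change -0.42, SE 0.15, edgeR adjusted p = 0.274), where KI 4 lay above WT 1. Of 34 potassium and HCN channel genes, 21 were below 0, and 8 were lower (23.5%, beside 6.47% of all tested genes) and 0 higher without overlap. By edgeR 0 were called (0 higher and 7 lower at an unadjusted p under 0.05, 0 and 1 called by DESeq2), and the median was -0.04. Their summed level was 3816, 4171 and 4095 CPM in WT and 3462, 3592, 3420 and 3634 CPM in KI libraries, with no overlap.

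The 40 genes of synaptic vesicle release had a median of -0.01, with 5 lower and 5 higher without overlap, 12.5% of the list in each direction beside 6.47% and 5.82% of all tested genes. The 1 member called was *Syt7*, a calcium sensor for asynchronous and facilitated release, at 123, 126 and 127 CPM in WT and 90.4, 99.1, 75.8 and 88.2 CPM in KI libraries (log2 fold change -0.50, SE 0.09, edgeR adjusted p = 0.0118). Its WT libraries lay within a narrow range above all KI libraries, and the call was lost without WT 2 or WT 3, with a replicate block and without KI 3 and WT 1 together (edgeR adjusted p up to 0.0733). Medians close to 0 were also measured for ionotropic glutamate receptors (-0.06, 20 genes), GABA-A and glycine receptors (0.07, 16 genes), sodium channels (-0.02, 11 genes), synaptic adhesion (0.03, 26 genes) and neurofilaments and axonal cytoskeleton (0.06, 21 genes). Of these, the medians of sodium channels, adhesion genes and neurofilaments, like that of vesicle release, changed sign under other settings. Immediate early genes had a median of 0.04 over 20 genes that was not stable, ranging from -0.48 to 0.14 over the alternatives and at -0.35 without KI 3 and -0.21 without WT 1. They were uneven among libraries, with *Fos* at 46.6, 94.7 and 105 CPM in WT and 34.7, 4.49, 99.0 and 74.2 CPM in KI libraries. Of 35 genes whose mutation causes ataxia, 26 were below 0 and 1 was called lower, and the median was -0.16. Without overlap, 9 were lower and 3 higher, 25.7% and 8.57% of the list beside 6.47% and 5.82% of all tested genes. Without its 7 Purkinje members the ataxia list had 19 of 28 genes below 0, 4 lower without overlap and a median of -0.11.

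**Figure D3:**
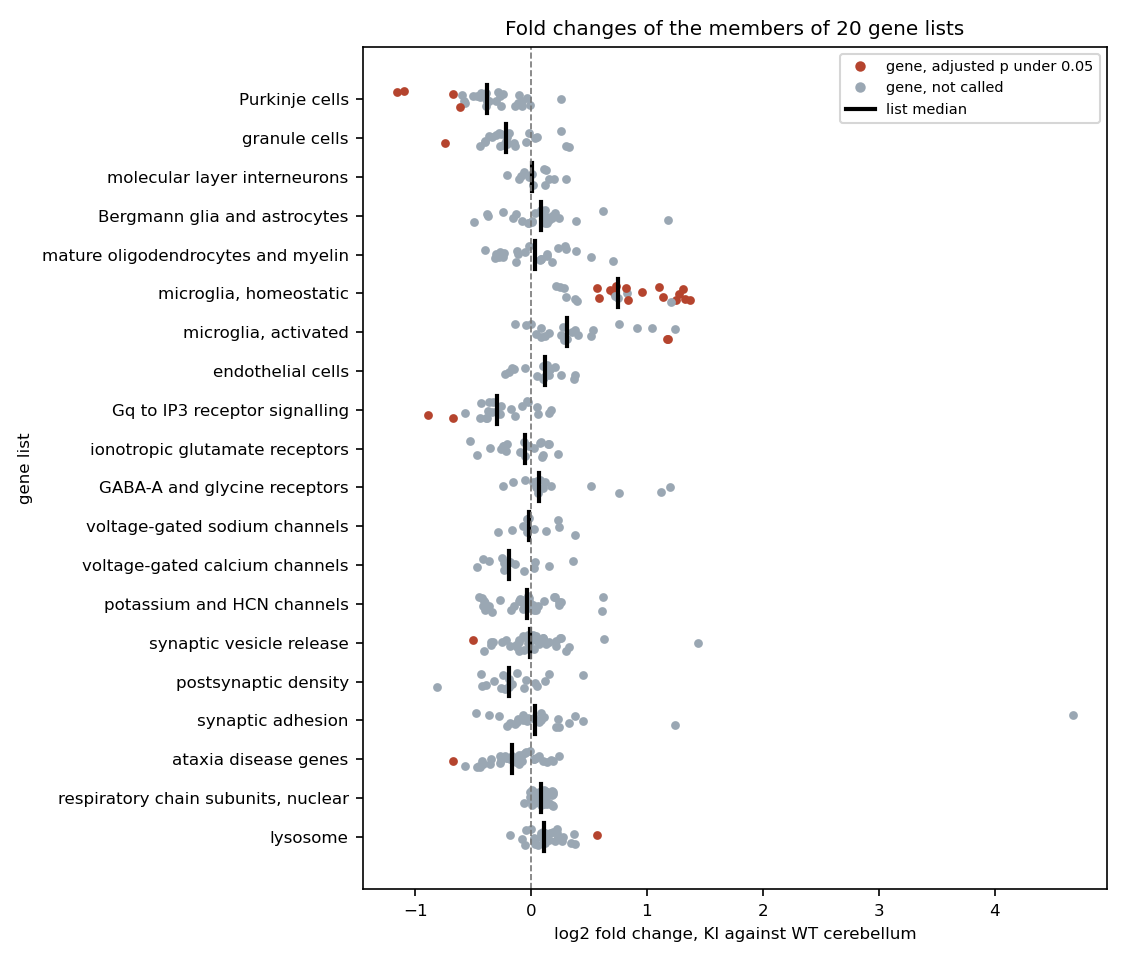
Log2 fold change of KI against WT cerebellum for each member of 20 gene lists (points, called genes in red, height within a list carries no meaning), with the list median as a black bar. Of these 20 lists, the medians lie furthest from 0 for homeostatic microglia (0.75) and Purkinje cells (-0.38).

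Most lower genes were outside these lists, among them the 2 with the smallest adjusted p. *Il20rb* (chr9:100457719-100486788), a subunit of receptors for the cytokines of the interleukin 20 group, measured 227, 187 and 232 CPM in WT and 55.1, 71.6, 54.0 and 61.4 CPM in KI libraries (log2 fold change -1.83, SE 0.15, edgeR adjusted p = 9.44e-06). Its log2 fold change was also below 0 in striatum (-1.24, SE 0.42) and prefrontal cortex (-0.91, SE 0.51). It was called in neither (edgeR adjusted p = 0.345 and 0.893). *Creg1*, a glycoprotein of lysosomes, measured 121, 133 and 129 CPM in WT and 89.4, 93.7, 78.1 and 77.8 CPM in KI libraries (log2 fold change -0.59, SE 0.08, edgeR adjusted p = 0.000723). *Dgkh*, a kinase that removes the second messenger diacylglycerol, measured 78.0, 75.0 and 67.9 CPM in WT and 47.7, 52.4, 44.4 and 41.2 CPM in KI libraries (log2 fold change -0.67, SE 0.10, edgeR adjusted p = 0.00106). *Nab2*, a corepressor of EGR transcription factors, measured 41.3, 49.3 and 48.8 CPM in WT and 22.7, 27.1, 22.0 and 21.9 CPM in KI libraries (log2 fold change -0.99, SE 0.15, edgeR adjusted p = 0.00231). The groups did not overlap in these 4 genes, which the rule that named them required. Their calls held in all 17 alternatives.

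Larger falls were seen in genes of low level. *Myo15*, a myosin best known from hair cells of the inner ear, measured 7.13, 8.65 and 7.68 CPM in WT and 0.338, 0.832, 0.336 and 0.605 CPM in KI libraries (log2 fold change -3.87, SE 0.44, edgeR adjusted p = 0.000173). *Cdc20*, an activator of the anaphase-promoting complex, measured 8.93, 34.5 and 23.5 CPM in WT and 3.15, 3.22, 2.97 and 2.12 CPM in KI libraries (log2 fold change -2.96, SE 0.39, edgeR adjusted p = 0.000512). *Car9*, a carbonic anhydrase of the cell surface, measured 18.1, 37.3 and 20.5 CPM in WT and 5.40, 5.38, 2.58 and 2.90 CPM in KI libraries (log2 fold change -2.64, SE 0.36, edgeR adjusted p = 0.000644). In *Cdc20* and *Car9* the WT libraries differed by more than 2-fold among themselves. In all 3 genes each KI library was below each WT library, which the naming rule required. *Stap2*, a signalling adaptor, measured 42.6, 74.6 and 62.5 CPM in WT and 13.9, 21.1, 23.3 and 23.9 CPM in KI libraries (log2 fold change -1.54, SE 0.20, edgeR adjusted p = 0.000357). The other lower genes named by the fixed rule were *Syne4* (-1.16), *Cep76* (-0.91), *Gmppa* (-0.61) and the unnamed locus *Gm15083* (-2.54), all called. *Malat1*, an abundant RNA of the nucleus chosen here after its value was seen, measured 8384, 8025 and 8665 CPM in WT and 4345, 4399, 5409 and 5707 CPM in KI libraries (log2 fold change -0.75, SE 0.12, edgeR adjusted p = 0.00309), with no overlap.

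**Figure D4:**
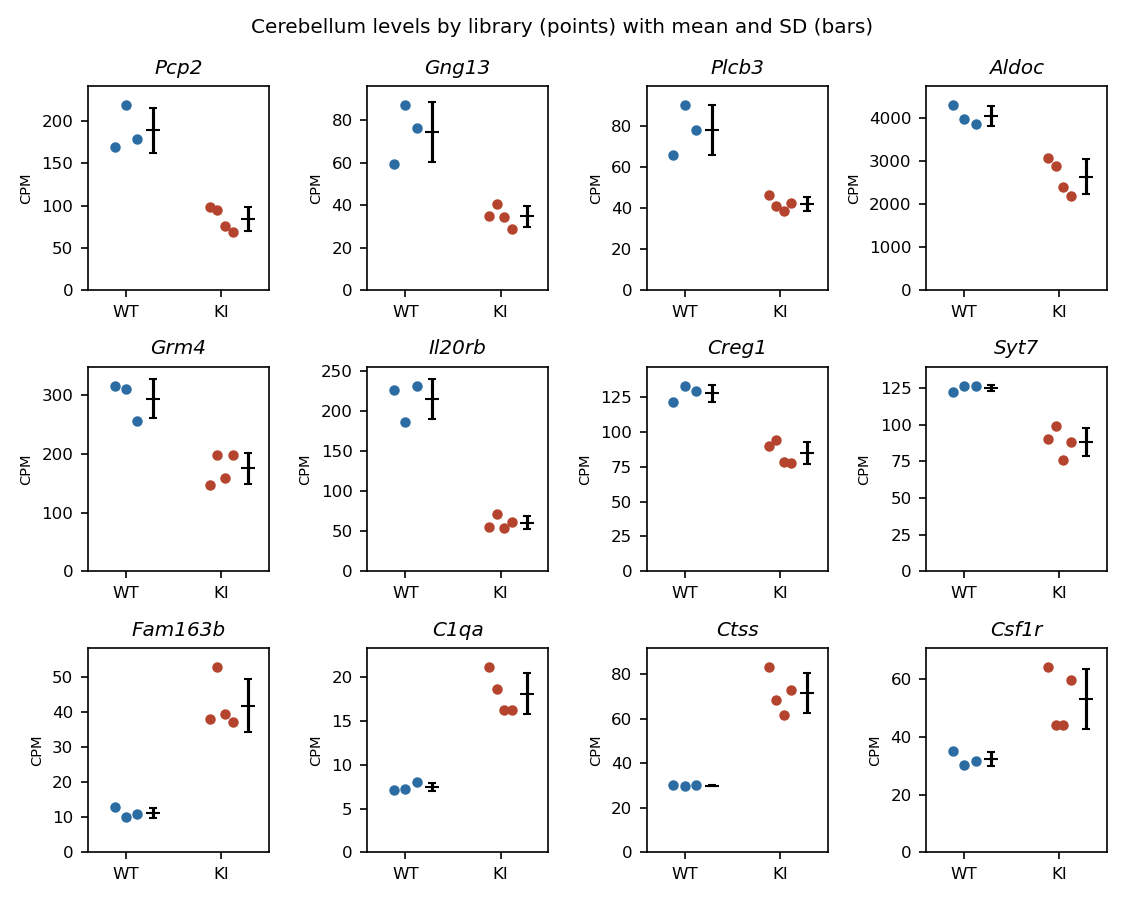
CPM of 12 genes in 3 WT and 4 KI cerebellum libraries (points, in the order of the replicate numbers), with mean and SD beside them (bars) and axes that start at 0. The KI and WT points do not overlap in any of the 12 genes, all of them called, and the naming rule required this for some of them.

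Since TBP binds the TATA box, and since the reporter construct of the study carried the SP1 motif GGGCGG, promoters of the called genes were read from RefSeq on GRCm38.p6, for 250 bases before and 50 after each annotated start. Among 12406 tested genes with an entry, 65.2% held GGGCGG on either strand, as did 66.7% of the 39 lower genes and 41.8% of the 67 higher genes with an entry. TATAAA stood in 9.17% of all, in 2.56% of the lower genes (1 gene, *Pcp2*) and in 22.4% of the higher genes. A short form of the interferon-stimulated response element was held by 3.63% of all, by 40.3% of the higher genes and by 0% of the lower genes. These matches are letters in a window and show no binding, and the shares were not tested. The 250 bases before the start are shown for the lower genes *Pcp2* (the one of its 4 annotated starts with TATAAA, chr8:3625283-3625532, minus strand), *Plcb3* (chr19:6969815-6970064, minus strand) and *Il20rb* (chr9:100486474-100486723, minus strand) and for the higher gene *Fam163b* (chr2:27142478-27142727, minus strand), since the text turns on these genes. Capitals mark TATAAA or GGGCGG, which read TTTATA or CCGCCC when on the other strand.
Pcp2: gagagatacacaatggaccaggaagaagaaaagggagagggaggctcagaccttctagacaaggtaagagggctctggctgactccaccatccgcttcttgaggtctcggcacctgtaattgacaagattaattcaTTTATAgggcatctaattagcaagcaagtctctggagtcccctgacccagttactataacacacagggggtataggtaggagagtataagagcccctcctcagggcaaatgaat
Plcb3: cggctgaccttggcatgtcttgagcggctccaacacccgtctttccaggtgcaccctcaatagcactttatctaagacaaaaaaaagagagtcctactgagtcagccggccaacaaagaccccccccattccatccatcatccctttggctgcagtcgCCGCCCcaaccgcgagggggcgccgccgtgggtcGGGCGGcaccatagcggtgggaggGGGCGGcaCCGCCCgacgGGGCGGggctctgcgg
Il20rb: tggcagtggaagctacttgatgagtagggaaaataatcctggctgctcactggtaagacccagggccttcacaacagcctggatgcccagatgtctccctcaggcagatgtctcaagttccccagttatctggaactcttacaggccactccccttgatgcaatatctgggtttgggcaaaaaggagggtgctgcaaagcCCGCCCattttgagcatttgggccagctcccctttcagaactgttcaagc
Fam163b: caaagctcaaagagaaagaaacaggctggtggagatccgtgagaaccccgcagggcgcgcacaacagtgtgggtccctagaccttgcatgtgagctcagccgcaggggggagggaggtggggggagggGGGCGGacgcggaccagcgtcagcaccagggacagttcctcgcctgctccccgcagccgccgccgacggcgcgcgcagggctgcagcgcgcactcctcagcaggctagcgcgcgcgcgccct
*Plcb3* held several GGGCGG matches close together, *Il20rb* and *Fam163b* held 1 each in these bases, and this start of *Pcp2* held none.

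Microglia genes were higher as a group. Of 25 genes of homeostatic microglia, all had a log2 fold change above 0, 15 were called higher and none lower, and 18 were higher without overlap (72.0% of the list, beside 5.82% of all tested genes). The list median was 0.75, against 0.04 in striatum and -0.10 in prefrontal cortex. Summed over the list, the level was 314, 278 and 294 CPM in WT and 609, 481, 436 and 509 CPM in KI libraries, 172% of the WT mean. All 25 genes stayed above 0 in each of the 17 alternatives, where between 9 and 18 of them were called.

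The first component of complement moved with the list. *C1qa* measured 7.13, 7.21 and 8.01 CPM in WT and 21.2, 18.6, 16.3 and 16.3 CPM in KI libraries (log2 fold change 1.28, SE 0.14, edgeR adjusted p = 0.000139). *C1qb* measured 18.6, 19.5 and 19.7 CPM in WT and 52.0, 45.6, 33.2 and 39.2 CPM in KI libraries (log2 fold change 1.143, SE 0.16, edgeR adjusted p = 0.000644), and *C1qc* had a log2 fold change of 0.96 (SE 0.14, edgeR adjusted p = 0.000935). In each of them every KI library lay above every WT library. *Ctss*, the protease cathepsin S that microglia use in antigen processing, measured 30.3, 29.7 and 30.1 CPM in WT and 83.4, 68.6, 61.9 and 72.7 CPM in KI libraries (log2 fold change 1.26, SE 0.14, edgeR adjusted p = 0.000139). *Ctss* was also called higher in striatum (0.75, edgeR adjusted p = 0.0174) and had 0.52 in prefrontal cortex (edgeR adjusted p = 0.427). Its effect was not shown to differ between regions (edgeR adjusted p = 0.281). *Csf1r*, the receptor on which microglia depend for survival, measured 34.96, 30.3 and 31.6 CPM in WT and 64.2, 44.1, 44.0 and 59.4 CPM in KI libraries (log2 fold change 0.71, SE 0.13, edgeR adjusted p = 0.0129). None of these groups overlapped, and *Csf1r* lost its call without WT 2 or WT 3 and in a fit of the cerebellum alone (edgeR adjusted p up to 0.0986). *Cx3cr1*, the fractalkine receptor, had 0.58 (SE 0.13, edgeR adjusted p = 0.0384), a call lost on leaving out any single library but WT 2 (up to 0.218). *Tmem119* (0.83, SE 0.21, edgeR adjusted p = 0.0836) and *P2ry12* (0.22, SE 0.10, edgeR adjusted p = 0.493), markers of resident microglia that are lost on activation, did not pass.

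Genes of activated microglia were less uniform. Of 23 tested, 21 were above 0, 8 were higher without overlap (34.8%, beside 5.82% of all tested genes) and 2 were called, with a median of 0.31. *Cd68*, a lysosomal protein of phagocytes, measured 2.83, 4.00 and 4.37 CPM in WT and 8.89, 7.82, 7.96 and 8.89 CPM in KI libraries (log2 fold change 1.17, SE 0.15, edgeR adjusted p = 0.000333). *Tyrobp*, the adaptor of the receptor TREM2, measured 3.73, 6.09 and 5.66 CPM in WT and 12.6, 10.1, 10.5 and 13.5 CPM in KI libraries (log2 fold change 1.18, SE 0.19, edgeR adjusted p = 0.00336). Both were higher in every KI library, at low levels. *Trem2* itself had 0.76 (edgeR adjusted p = 0.110), *Cst7* -0.05 (edgeR adjusted p = 0.990) and the class II genes *H2-Aa* and *H2-Ab1* 0.00 and -0.14, with overlapping groups for the latter 3. *Apoe*, made by astrocytes and microglia, measured 1646, 1727 and 1506 CPM in WT and 2109, 2122, 1923 and 1721 CPM in KI libraries (log2 fold change 0.28, SE 0.10, edgeR adjusted p = 0.340), with KI 4 below WT 2. *Cd86* and *Fcgr3*, myeloid surface genes in neither list, were called higher at 1.83 and 0.96, the latter chosen after its value was seen. *Cd86* lost its call without WT 3, in a fit of the cerebellum alone, with a replicate block and with thinned libraries (edgeR adjusted p up to 0.0932). *Fcgr3* lost it without WT 2 or WT 3 and with the cerebellum alone (edgeR adjusted p up to 0.0932).

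Few genes of other glia and vessels reached even an unadjusted p under 0.05. Bergmann glia and astrocytes had a median of 0.09 over 27 genes, with 3 higher and 2 lower without overlap and 0 called by edgeR (1 higher and 1 lower at an unadjusted p under 0.05, 0 and 0 called by DESeq2), and *Slc1a3*, their glutamate transporter, measured 2013, 2151 and 2269 CPM in WT and 2469, 2262, 1987 and 1913 CPM in KI libraries (log2 fold change 0.01, SE 0.11, edgeR adjusted p = 0.994). Mature oligodendrocytes had a median of 0.03 over 24 genes with 12 on each side of 0 and 0 called by edgeR (2 higher and 0 lower at an unadjusted p under 0.05, 0 and 0 called by DESeq2), and *Mbp*, myelin basic protein, measured 4419.6, 3458 and 3939 CPM in WT and 4309, 3084, 2853 and 4369 CPM in KI libraries. The groups overlapped in both genes. Oligodendrocyte precursors (0.17, 10 genes), endothelial cells (0.12, 18 genes) and pericytes (-0.09, 12 genes) also had 0 genes called by edgeR. An unadjusted p under 0.05 was reached by 1 precursor gene that was higher and 1 pericyte gene that was lower, and DESeq2 called 0 genes of the precursor and endothelial lists. For tissue at the borders of the dissection, meninges had a median of 0.21, the 6 brainstem genes tested of 15 written 0.27, forebrain genes -0.08 and haemoglobin genes with other blood genes -0.14, and 0 of them were called by edgeR. At an unadjusted p under 0.05, 1 brainstem gene was lower and 1 blood gene higher, and 0 of the meninges or forebrain genes passed. The medians of brainstem, forebrain, meninges, blood, pericytes and oligodendrocytes changed sign under other settings, as did that of the choroid plexus without KI 3. That of blood ranged from -0.69 to 0.45.

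Outside the immune lists, the higher genes were led by *Fam163b* (chr2:27110380-27142491), which measured 12.9, 10.0 and 11.1 CPM in WT and 37.9, 52.9, 39.4 and 37.1 CPM in KI libraries (log2 fold change 1.88, SE 0.17, edgeR adjusted p = 2.32e-05). Every KI library was above every WT library by more than 2-fold, and KI 2 was the highest. *Timp2*, an inhibitor of matrix metalloproteinases, measured 80.1, 87.4 and 81.2 CPM in WT and 127, 152, 204 and 135 CPM in KI libraries (log2 fold change 0.90, SE 0.20, edgeR adjusted p = 0.0485), while *Bmp1*, a protease that matures collagen, measured 257, 269 and 257 CPM in WT and 119, 155, 172 and 205 CPM in KI libraries (log2 fold change -0.68, SE 0.15, edgeR adjusted p = 0.0341). These were the matrix genes called of 27, 1 in each direction, with no overlap of groups, and the calls were lost on leaving out 6 of the 7 libraries in turn (all but KI 1 for *Timp2*, all but KI 4 for *Bmp1*, with edgeR adjusted p up to 0.256 and 0.149). *Met*, the receptor of hepatocyte growth factor, was at 0 in all WT libraries and at 0.507, 0.166, 0.560 and 0.484 CPM in KI libraries (edgeR adjusted p = 0.00357), too few counts to state a fold change. Among genes chosen after their values were seen, the adhesion gene *Sdk1* had a log2 fold change of 1.66 and *Tmem132b* 0.81, both called. Among single libraries left out, both calls were lost without WT 2 or WT 3, that of *Sdk1* also without KI 3 or WT 1 and that of *Tmem132b* also without KI 1 or KI 2 (edgeR adjusted p up to 0.155 and 0.125).

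The 51 nuclear-encoded subunits of the respiratory chain had 47 members above 0, 5 higher without overlap and 0 called by edgeR (3 higher and 0 lower at an unadjusted p under 0.05, 0 and 0 called by DESeq2), with a median of 0.09, against 0.08 in striatum and 0.07 in prefrontal cortex. Their summed level was 16268, 17815 and 15789 CPM in WT and 18219.6, 18240.2, 18186 and 16313 CPM in KI libraries. Those sums overlapped, with KI 4 among the WT libraries, and without KI 3 and WT 1 the members above 0 numbered 30 of 51. Of 30 lysosome genes, 26 were above 0 and 8 were higher without overlap (26.7%, beside 5.82% of all tested genes), with a median of 0.11. Without their microglia members, 22 of 26 lysosome genes were above 0, and 6 were without overlap. *Ctsd*, the protease cathepsin D, measured 569, 521 and 506 CPM in WT and 667, 612, 833 and 655 CPM in KI libraries (log2 fold change 0.38, SE 0.16, edgeR adjusted p = 0.420), with no overlap. TBP and general transcription factors had a median of 0.01 over 30 genes, with summed levels of 1127, 1155 and 1141 CPM in WT and 1166, 1181, 1150.1 and 1151 CPM in KI libraries. Chaperones (-0.02, 32 genes), p53 targets (0.08, 20 genes), glycolysis (0.04, 16 genes), cholesterol synthesis (-0.06, 20 genes) and mitochondrially encoded genes (-0.06, 7 genes) lay near 0, and *Aldoc* was the 1 member called among them. The medians of chaperones (0.18 without WT 1), p53 targets, cholesterol synthesis and general transcription factors changed sign under other settings.

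To ask where the cerebellum differed, its effect was compared with the mean effect in striatum and prefrontal cortex, as a contrast in the same edgeR fit. It differed for 9 genes at an adjusted p under 0.05 (0.0534% of those tested), 6 more positive (0.0356%) and 3 more negative (0.0178%) in the cerebellum. The number was 2 without WT 2, 5 without WT 3, 14 without WT 1 and 23 without KI 3 and WT 1 together. *Fam163b* differed by 2.27 (SE 0.21, edgeR adjusted p = 8e-05), with -0.72 in striatum and -0.06 in prefrontal cortex. The microglia genes *C1qa*, *C1qb*, *Cd68* and *Fcer1g* differed by 1.17, 1.12, 1.42 and 1.26 (edgeR adjusted p = 0.0115, 0.0339, 0.00320 and 0.0300). Their effects in the other regions lay between -0.29 and 0.32. *Gng13* differed by -1.15 (edgeR adjusted p = 0.0300) and *Stap2* by -1.60 (edgeR adjusted p = 0.0300), with effects in the other regions between -0.11 and 0.21. *Stat2*, which carries interferon signals, differed by -0.69 (edgeR adjusted p = 0.0300), since it was -0.22 in the cerebellum against 0.52 and 0.42 in the other regions. The processed pseudogene *Gm8210* differed by 5.99 through the other regions, and its counts may be shared with near-identical copies. *Pcp2* (-0.96, SE 0.43, edgeR adjusted p = 0.689) and *Plcb3* (-0.80, SE 0.15, edgeR adjusted p = 0.0613) were not shown to differ between regions.

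**Figure D5:**
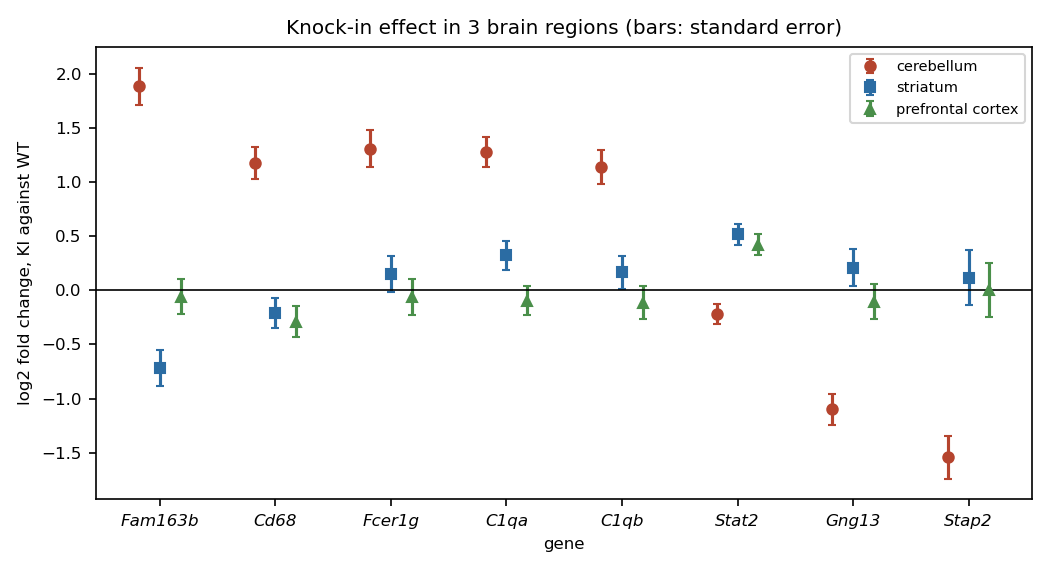
Log2 fold change of KI against WT in cerebellum, striatum and prefrontal cortex (points, with standard errors as bars) for 8 of the 9 genes whose effect differed between the cerebellum and the mean of the other regions. *Fam163b* and the microglia genes are above 0 in the cerebellum, *Gng13* and *Stap2* below 0 there, and *Stat2* is above 0 in the other regions.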

How the data were processed

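RNA of 19 mouse brain samples was sequenced, of which the 7 cerebellum libraries carry this report. Per the labels, libraries were made with the SMART-Seq v4 and Nextera XT kits, and the submitters' processing notes name bcl2fastq 2.17.1.14, STAR 2.5.2b, HTSeq, DESeq2 1.10.1 and the build GRCm38.p3, with no role stated. The paper's methods name Cufflinks and Cuffdiff. The use of strand is not given in the sources used here. The authors deposited raw counts per Ensembl gene for each library, which were used, and a normalized table, which was not.

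Gene names and positions came from GENCODE M21 (GRCm38), which matched 40254 of 41128 identifiers. In edgeR 4.0.16 under R 4.3.3, filterByExpr over the 6 groups of region and genotype left 16841 genes and TMM scaled the libraries. A single quasi-likelihood model of the 19 libraries (13 degrees of freedom left) gave each contrast, and each standard error was taken from the fold change and its F statistic, which 55 genes, none of them named here, did not yield. The authors' Cuffdiff test needs reads and was not repeated. A two-sided exact permutation test, which with 4 against 3 libraries cannot go below 0.0286, was planned for any value tested alone. No value was tested alone, since each gene was taken from the model across genes. Reads of antisense, overlapping or near-identical genes cannot be separated in these counts. A fold against a group at 0 was not stated, with 3 counts as the floor, which covers counting error only. The fits were tested on simulated counts. Some genes that enter the counts and medians of lists are not reported here by name, and are not drawn where genes are drawn by name.

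Named genes were *Tbp*; in each direction the 15 called genes with the smallest adjusted p whose KI and WT libraries did not overlap, leaving out interferon genes, *Inpp5a* and symbols of families rich in interferon genes; every called member of a list; up to 4 members of each list with the highest WT level; and genes of the regional contrast. *Cst7*, *Fcgr3*, *Foxp2*, *Gna11*, *Gnaq*, *H2-Aa*, *H2-Ab1*, *Itpkb*, *Lhx1*, *Lhx5*, *Malat1*, *Neurod1*, *P2ry12*, *Rora*, *Sdk1*, *Shank2*, *Tmem119*, *Tmem132b* and *Trem2* fall outside it and were chosen after their values were seen. Members, lists and tests were chosen with earlier results of these data known, so no list is independent evidence of its direction. Alternatives covered scaling, filters, DESeq2 1.42.0, the cerebellum alone, a replicate block, sex, each library left out, and, added after seeing the data, libraries KI 3 and WT 1 left out together and all libraries thinned to the smallest total.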

Additional observations from a re-analysis of the deposited data

Results flagged for a closer look

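Of 108 values examined in the 4 KI libraries (67 genes and 41 list sums), 10 had 1 library further from the rest than Dixon's limit at the 95% level, where chance gives about 5 in every 100 such values. KI 3 stood apart for the choroid plexus list, at 11168 CPM summed, for its marker *Ttr*, at 4547 CPM, and for synaptic vesicle release, at 15601 CPM summed. KI 4 stood apart for activated microglia (3950 CPM summed, the others 4409 to 4492), for the respiratory chain (16312 CPM summed), for the potassium channel gene *Kcnd2* (308 CPM) and for *Skor2*, a corepressor of young Purkinje cells (0.423 CPM). The microglia sum includes the abundant *Apoe*, which astrocytes also make and which was lowest in KI 4 among the KI libraries. Its called members were not low there. *Cd68* measured 8.89 CPM in KI 4 and 7.82 to 8.89 CPM in the other KI libraries, and *Tyrobp* 13.5 and 10.1 to 12.6 CPM. KI 2 was the highest library for *Fam163b* (52.9 CPM) and for *Nab2* (27.1 CPM), and KI 1 for p53 targets (649 CPM summed).

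The effect in the cerebellum differed from the mean effect in the other regions by a test of the difference in 9 genes. The log2 difference was 2.27 for *Fam163b*, 1.42 for *Cd68*, 1.26 for *Fcer1g*, 1.17 for *C1qa* and 1.12 for *C1qb*. It was -1.60 for *Stap2*, -1.15 for *Gng13* and -0.69 for *Stat2*. For *Gm8210* it was 5.99, with log2 fold changes of -6.22 in striatum, -7.76 in prefrontal cortex and -1.003 in cerebellum, where it was not called.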

How the results depend on the processing

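The counts of genes higher, lower and differing between regions were 87, 53 and 9, and of 49 such counts under the alternatives 34 stayed within 1.5 times these. DESeq2 gave 175, 161 and 90, and with the cerebellum libraries alone DESeq2 gave 211 and 278 and edgeR 88 lower genes. With 1 library left out in turn the counts ranged from 48 to 94 higher, 23 to 64 lower and 2 to 14 differing, with the smallest counts without WT 2 or WT 3. Without KI 3 and WT 1 together, an alternative chosen after seeing the data, 23 genes differed between regions, and 79 of the 140 genes called in the cerebellum were shared. Among the 60 called genes named by the rule or described, 1013 values under the alternatives held 846 kept calls and 167 lost calls, and 0 changed sign. Of 697 list medians under the alternatives, 662 moved by less than the spread between libraries. The causes of these differences were not tested. Few counts stood behind *Met*, at 0.560 CPM or less in each cerebellum library. *Cdc20* kept its call in all 17 alternatives, thinned libraries among them.

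The replicate numbers did not pair the libraries: KI and WT libraries of the same number correlated at 0.077, 0.01 and -0.245 in their deviations from the group means. With the replicate number as a block, 84 genes were higher, 58 lower and 3 differed between regions, and 94 of the 140 called genes were shared. KI 4 has no WT partner in that fit.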

Other observations

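Noncoding transcripts lay slightly lower than coding genes in the KI cerebellum. Of 577 antisense genes tested, 349 were below 0, 2 were called lower and none higher, with a median log2 fold change of -0.11. Of 260 processed pseudogenes, 171 were below 0, with a median of -0.21, and their counts may be shared with the parent genes. Of 416 lincRNA genes, 3 were called lower and the median was -0.05. For 14882 protein-coding genes the median was 0.01, with 85 called higher and 46 lower. Each KI library was deeper than each WT library, and the part of depth in these medians was not tested.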
